A study of Mus musculus with 9 samples.

Results

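Transcript levels of 9 genes of arginine, nitric oxide and polyamine metabolism were examined in whole skin of control and *Supt6*-KO mice. They and the lists used below were chosen with earlier results of these data known. By role they were *Nos2* and *Ass1* for the use and renewal of arginine, *Odc1* and *Azin1* for the supply of putrescine, *Srm*, *Sms* and *Amd1* for spermidine and spermine synthesis, and *Sat1* and *Smox* for polyamine breakdown. All 9 had a row among the 17943 genes of the count table, and all 9 were among the 16426 genes with at least 10 counts over the 9 mice that were tested. The *Supt6*-KO mice carried K14-CreERT and *Supt6* fl/fl and received daily intraperitoneal tamoxifen during the first telogen, so that *Supt6*, which encodes the transcription elongation factor SPT6, was deleted in cells expressing keratin 14, mainly basal keratinocytes. The controls were *Supt6* fl/fl mice given corn oil according to the paper, whereas the sample labels call them wild-type. Skin of 5 control and 4 *Supt6*-KO mice was collected on day 10 after the last injection. The labels give the tissue as ear and the paper's methods give dorsal skin, and neither states the age of the mice in days for these samples. Because Cre and tamoxifen were both present in the *Supt6*-KO group alone, their effects and that of the deletion cannot be told apart.

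Arginine is split into ornithine and urea, or oxidised by nitric oxide synthases into nitric oxide and citrulline, which argininosuccinate synthase and lyase turn back into arginine. Ornithine decarboxylase makes putrescine from ornithine, and spermidine synthase and spermine synthase then add aminopropyl groups that come from decarboxylated S-adenosylmethionine, the product of the enzyme encoded by *Amd1*. Spermidine/spermine acetyltransferase (*Sat1*) and spermine oxidase (*Smox*) run the pathway backwards. In skin, ornithine decarboxylase is known from proliferating keratinocytes and hair follicles, and *Nos2* is known from activated macrophages and is also inducible in keratinocytes.

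The deposited estimated counts summed to between 29627341 and 30967107 per mouse, and all levels below are CPM, counts scaled to library sizes adjusted by TMM, a method that allows for differences in RNA composition. The TMM factors were 1.198 to 1.315 in the controls and 0.781, 0.674, 0.706 and 0.910 in *Supt6*-KO mice 1 to 4. The 50 most abundant genes took 14.5% to 16.5% of the counts in the controls and 23.9%, 27.9%, 26.3% and 17.0% in *Supt6*-KO mice 1 to 4. *Supt6* itself was at 74.5, 56.6, 63.6, 91.1 and 96.7 CPM in controls 1 to 5 and at 28.6, 24.1, 21.9 and 28.4 CPM in *Supt6*-KO mice 1 to 4. The groups did not overlap, and edgeR's quasi-likelihood fit gave a log2 fold change (log2FC) of -1.57 ± 0.18 (standard error, as after ± for each log2FC; adjusted p = 1.3e-05, by Benjamini-Hochberg across the 16426 genes). For *Supt6* it was -2.26 with library totals in place of TMM factors and -0.76 with offsets that remove a trend on gene length.

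*Supt6*-KO mouse 4 stood apart from the other *Supt6*-KO mice. Its summed level of the stress keratins *Krt6a*, *Krt6b*, *Krt16* and *Krt17* was 22800 CPM against 5510, 2950 and 5380 CPM in *Supt6*-KO mice 1 to 3 and 274 to 564 CPM in the controls. Its summed level of 7 proliferation genes was 947 CPM against 341, 301 and 394 CPM in *Supt6*-KO mice 1 to 3. Calls among the 9 genes that rest on this mouse are given with and without it, as are the counts of gene lists that it moved by over 1.5 times.

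Of the 9 genes, 7 were higher and 0 were lower in *Supt6*-KO skin (adjusted p under 0.05, edgeR's quasi-likelihood test), where 34.1% of all genes tested were higher and 36.8% were lower. The 7 were *Nos2*, *Ass1*, *Odc1*, *Srm*, *Sms*, *Sat1* and *Smox*, of which the call of *Srm* was lost without *Supt6*-KO mouse 4 and those of *Odc1*, *Srm* and *Sms* were lost with library totals in place of TMM factors. Without mouse 4, 7 were again higher, with *Azin1* in the place of *Srm*. At least a 2-fold rise was called for 5 of the 9, against 20.9% of all genes, and for 6 of the 9 every *Supt6*-KO mouse was above every control, against 28.9% of all genes. Since the 9 were chosen with earlier results of these data known, their excess over these shares is not independent of the data. The 9 genes had a median log2FC of 1.57 (1.3 without *Supt6*-KO mouse 4 and 0.86 with library totals), and all genes tested had -0.07. The middle value of 1.57 is that of *Amd1*, whose own log2FC did not pass.

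*Nos2* (chr11:78920787-78960226 in GRCm38, the build also called mm10, as RefSeq gives this and the following genes), encoding the inducible nitric oxide synthase, was scarce in both groups. It was counted 4, 7, 13, 12 and 11 times in controls 1 to 5 and 31, 44, 55 and 32 times in *Supt6*-KO mice 1 to 4, or 0.253 ± 0.103 CPM (SD, n = 5) against 1.77 ± 0.654 CPM (SD, n = 4). The groups did not overlap even at these low counts, and the log2FC was 2.78 ± 0.37 (adjusted p = 4.4e-05, edgeR's quasi-likelihood test), and 2.05 with library totals.

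*Ass1* (chr2:31470270-31520670), encoding argininosuccinate synthase, rebuilds arginine from citrulline. It was within a narrow range in controls 1 to 5, at 74.9, 71.5, 73.0, 67.2 and 67.8 CPM, and reached 136, 157, 231 and 348 CPM in *Supt6*-KO mice 1 to 4. Each *Supt6*-KO mouse was above the controls and mouse 4 was highest. For *Ass1* the log2FC was 1.62 ± 0.23 (adjusted p = 8.2e-05, edgeR's quasi-likelihood test), 1.3 without *Supt6*-KO mouse 4 and 0.97 with library totals.

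*Odc1* (chr12:17544808-17551502), encoding ornithine decarboxylase, stood at 162, 195, 158, 149 and 117 CPM in controls 1 to 5 and at 415, 325, 223 and 649 CPM in *Supt6*-KO mice 1 to 4. The groups were separate, but *Supt6*-KO mouse 3 had the least *Odc1* of its group and lay close to the highest control. Its log2FC was 1.37 ± 0.27 (adjusted p = 0.00073, edgeR's quasi-likelihood test) and 1.04 (adjusted p = 0.00062) without mouse 4. With library totals it was 0.74 and did not pass (adjusted p = 0.053).

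*Azin1* (chr15:38487430-38519294) encodes an antizyme inhibitor, a catalytically inactive relative of ornithine decarboxylase that shields the enzyme from antizyme. Its levels were 123 to 154 CPM in the controls (median 140) and 147, 190, 182 and 167 CPM in *Supt6*-KO mice 1 to 4, so that *Supt6*-KO mouse 1 fell within the control range. Its log2FC of 0.29 ± 0.12 did not pass (adjusted p = 0.0502, edgeR's quasi-likelihood test), passed without *Supt6*-KO mouse 4 (0.30, adjusted p = 0.041), passed with length offsets (0.84, adjusted p = 0.0003) and in DESeq2 (0.35, adjusted p = 0.011), and was -0.42 with library totals (adjusted p = 0.009).

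The aminopropyl transferases had smaller log2FCs. *Srm* (chr4:148591513-148594619), encoding spermidine synthase, was at 40.8, 48.2, 36.5, 41.1 and 37.8 CPM in controls 1 to 5 and at 66.4, 41.5, 44.1 and 105 CPM in *Supt6*-KO mice 1 to 4. *Supt6*-KO mice 2 and 3 were within the control range, and the difference came from mice 1 and 4. The log2FC of 0.65 ± 0.24 (adjusted p = 0.0298, edgeR's quasi-likelihood test) was 0.30 (adjusted p = 0.091) without mouse 4, 0.02 with library totals and 0.06 with length offsets. The call was also lost with a replicate block (0.53) and with a Y-linked covariate (0.60). Without control 1, 3, 4 or 5 or *Supt6*-KO mouse 1 it was lost too (adjusted p = 0.051 to 0.062, edgeR). In these fits without 1 mouse the log2FC stayed at 0.62 to 0.65.

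*Sms* (chrX:157443851-157492287), encoding spermine synthase, showed the opposite pattern of spread. It was at 28.7, 35.9, 33.8, 26.8 and 23.6 CPM in controls 1 to 5 and at 45.3, 50.1, 43.6 and 45.3 CPM in *Supt6*-KO mice 1 to 4, with a coefficient of variation of 6.11% among the *Supt6*-KO mice against 45.7% for *Srm*. All *Supt6*-KO mice were above the controls on this scale. The log2FC of *Sms* was 0.63 ± 0.13 (adjusted p = 0.0013, edgeR's quasi-likelihood test), and -0.06 with library totals (adjusted p = 0.71).

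*Amd1*, encoding S-adenosylmethionine decarboxylase, could not be read on its own. Its estimated counts were 636, 0, 958, 319 and 0 in controls 1 to 5 and 638, 635, 958 and 635 in *Supt6*-KO mice 1 to 4, repeating nearly the same values across mice. A near-identical intronless copy, *Amd2*, took 4453 to 6608 counts in the controls and 8784 to 11372 in the *Supt6*-KO mice. In the GENCODE M21 annotation of GRCm38, the transcript *Amd1*-201 has 8 exons and 3204 bases (chr10:40287458-40302186, minus strand), and *Amd2*-201 has 1 exon and 3218 bases (chr10:35708675-35711892, minus strand). Over 3208 aligned bases they had 14 mismatches and 4 gap bases and were 99.4% identical, with an unbroken identical run of 930 bases. Their coding sequences of 1005 bases differed by G796C, counted from the A of the start codon with the *Amd1* base first, and the stretch around it is shown because it is the only coding position by which these 2 transcripts can be told apart. The capital marks the differing base, in coding positions 781 to 810 (chr10:40290172-40290201 and chr10:35710750-35710779, both minus strand).
Amd1: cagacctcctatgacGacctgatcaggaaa
Amd2: cagacctcctatgacCacctgatcaggaaa

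By itself *Amd1* had a log2FC of 1.57 ± 1.11 and did not pass (adjusted p = 0.22, edgeR's quasi-likelihood test). The counts of *Amd1* and *Amd2* were therefore also summed, a choice made after seeing the data. The sum was 136, 181, 161, 149 and 120 CPM in controls 1 to 5 and 452, 452, 448 and 431 CPM in *Supt6*-KO mice 1 to 4. The groups were far apart, and on the TMM scale the *Supt6*-KO mice were nearly level, with a coefficient of variation of 2.19%, while their summed counts before scaling were 10812, 9419, 9786 and 12007. The log2FC of the sum was 1.58 (standard error 0.14, adjusted p = 2.3e-06, edgeR's quasi-likelihood test), or 0.89 with library totals (adjusted p = 0.00012), and 8 of the 9 genes were then higher.

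Both genes of polyamine breakdown rose. *Sat1* (chrX:155213126-155216449), whose product acetylates spermidine and spermine for export or oxidation, was at 140, 181, 173, 132 and 114 CPM in controls 1 to 5 and at 900, 1170, 1370 and 846 CPM in *Supt6*-KO mice 1 to 4. The groups were far apart, at 148 ± 28.2 CPM (SD, n = 5) and 1070 ± 245 CPM (SD, n = 4). The log2FC was 2.85 ± 0.20 (adjusted p = 7.4e-07, edgeR's quasi-likelihood test), and 2.14 with library totals.

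*Smox* (chr2:131491858-131525183), whose product oxidises spermine directly to spermidine, was at 24.2, 21.0, 17.6, 21.3 and 15.1 CPM in controls 1 to 5 and at 86.5, 68.0, 66.9 and 102 CPM in *Supt6*-KO mice 1 to 4. Again no *Supt6*-KO mouse came near the controls. For *Smox* the log2FC was 2.03 ± 0.17 (adjusted p = 2.1e-06, edgeR's quasi-likelihood test), and 1.36 with library totals.

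*Sat1* and *Sms* are on the X chromosome, and the mice were not alike in Y-linked expression. The summed CPM of *Ddx3y*, *Uty*, *Kdm5d* and *Eif2s3y* was 0.0802 and 0.0554 in controls 1 and 3 and between 152 and 280 in the other 7 mice. With the log2 of that sum as a covariate, the log2FC was 2.90 for *Sat1* (adjusted p = 1.5e-05) and 0.68 for *Sms* (adjusted p = 0.0055, edgeR's quasi-likelihood test), while the call of *Srm* was lost (0.60, adjusted p = 0.1) and *Amd1* gained one (3.64, adjusted p = 0.031). *Amd1* had 636 and 958 counts in controls 1 and 3 and 0, 319 and 0 in controls 2, 4 and 5. The gained call thus rests on a split from *Amd2* that could not be read.

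Levels between genes were compared per kilobase of the longest GENCODE transcript. In the controls *Sat1* was most abundant at 128 ± 24.2 CPM per kilobase (SD, n = 5), followed by *Odc1* at 70.7, *Ass1* at 41.8, *Srm* at 30.6, *Azin1* at 28.9, *Smox* at 8.63, *Sms* at 8.00, *Amd1*, by its own share of the counts, at 3.26 and *Nos2* at 0.0603. *Amd1* and *Amd2* summed were at 46.6 ± 7.22 CPM per kilobase in the controls and 139 ± 3.04 in *Supt6*-KO skin (SD, n = 5 and 4), in both groups between *Odc1* and *Ass1*. That sum did not differ from *Ass1* beyond the spread in either group, nor from *Odc1* in *Supt6*-KO skin. *Srm* and *Azin1* differed by less than their SD, as did *Smox* and *Sms*. In *Supt6*-KO skin *Sat1* remained first at 922 ± 211 CPM per kilobase (SD, n = 4). *Odc1* followed at 182 ± 82.3 and *Ass1* at 129 ± 56.4, neighbours that did not differ beyond their spread. *Nos2* stayed last at 0.422 ± 0.156 CPM per kilobase. The deposited TPM values of the 5 controls gave the same order, from *Sat1* at 273 TPM to *Nos2* at 0.116 TPM on average.

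The *Supt6*-KO mice did not share an order across the 9 genes. *Nos2* and *Sat1* were highest in mouse 3, whereas *Ass1*, *Odc1*, *Srm* and *Smox* were highest in mouse 4. Over the 9 mice, after subtracting each group's mean log2 CPM, *Odc1* correlated with *Srm* (Pearson's r = 0.88, n = 9) and *Smox* (r = 0.81). *Nos2* ran against *Odc1* (r = -0.82), *Srm* (r = -0.83) and *Smox* (r = -0.81). Without *Supt6*-KO mouse 4 the values were 0.72 for *Odc1* and *Srm* and -0.72 for *Nos2* and *Odc1* (n = 8). These are descriptions of values that share libraries and their scaling, among 36 pairs, and *Nos2* rests on 4 to 55 counts per mouse. Among 11214 genes with a mean of at least 5 CPM, the deviations most like those of *Nos2* were of *Adamts10* (r = 0.97), *Ifitm10* (0.96) and *Med14* (0.96), and those most like *Odc1* were of *Hmces* (0.98), *Anapc5* (0.97) and *Pcyt2* (0.97). These were picked as the highest of 11214 values over 9 mice, which by itself favours high values, and they were not tested.

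**Figure D1:**
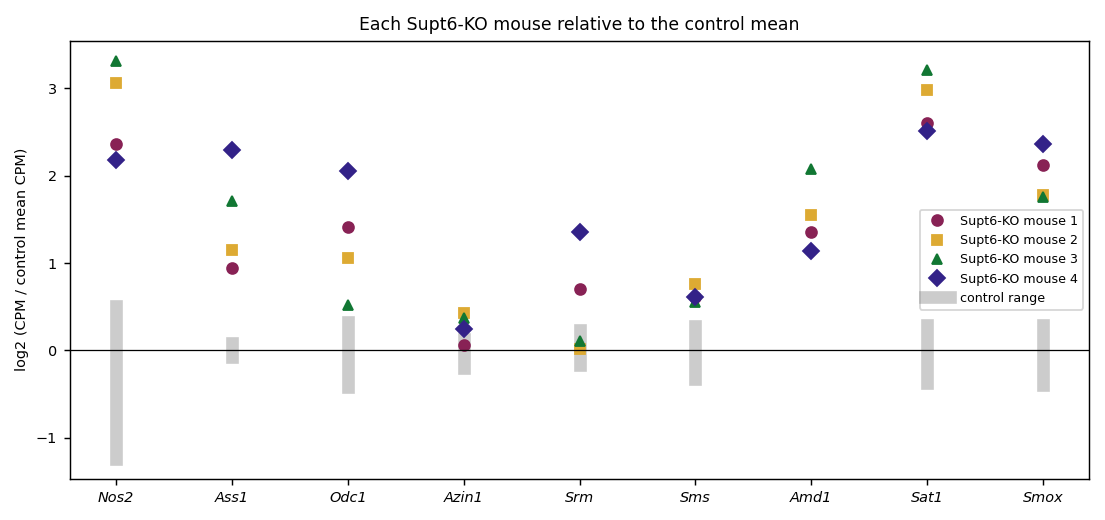
The log2 ratio of CPM in each *Supt6*-KO mouse to the control mean (y axis) is plotted for the 9 genes (x axis), with a symbol for each mouse and grey bars for the range of the 5 controls (none for *Amd1*, which was at 0 in controls 2 and 5). Mouse 3 (triangles) is highest for *Nos2* and *Sat1* and mouse 4 (diamonds) for *Ass1*, *Odc1*, *Srm* and *Smox*.

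**Figure D2:**
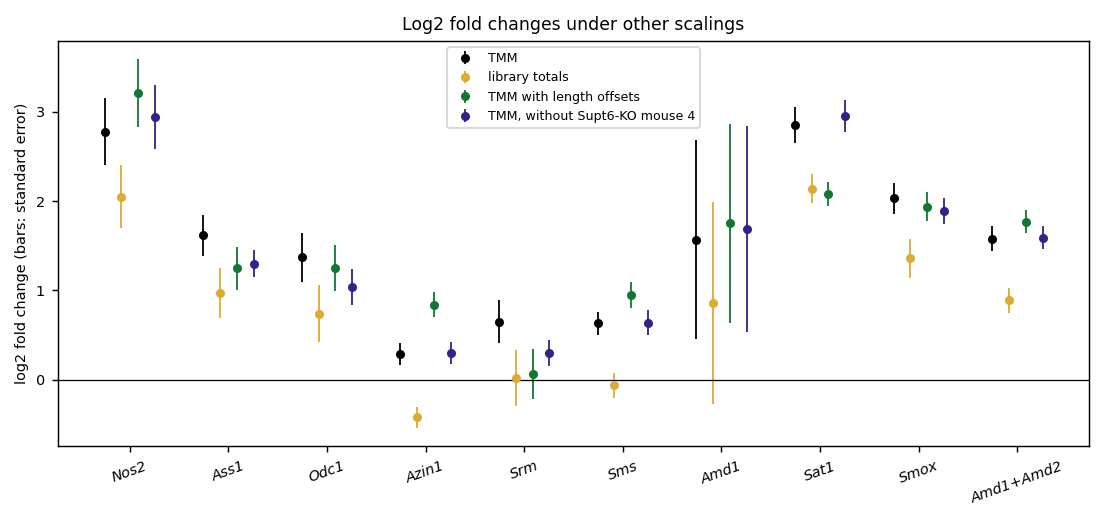
Log2 fold changes of the 9 genes and of *Amd1* and *Amd2* summed (points; bars are standard errors) with TMM factors, with library totals, with offsets that remove a trend on gene length, and without *Supt6*-KO mouse 4. *Nos2*, *Ass1*, *Sat1* and *Smox* stay above 0 in each, *Azin1* (-0.42) and *Sms* (-0.06) fall below it with library totals, and *Srm* is near 0 with library totals (0.02) and with length offsets (0.06).

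The wider pathway was read from a list of 60 other genes, of which 58 had a row and 54 were tested. Of these 54, 24 were higher and 16 were lower (44.4% and 29.6%, against 34.1% and 36.8% of all genes), with a median log2FC of -0.22. The split depended on the scaling, since library totals gave 10 higher and 25 lower, where 16.9% of all genes were higher and 54.6% lower. Without *Supt6*-KO mouse 4, 24 were higher and 22 lower.

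For arginine entry and for arginine-handling enzymes more genes were called lower than higher. No gene of 6 for arginine transport was higher and 2 were lower (33.3%, against 36.8% of all genes). The count of lower genes was 4 without *Supt6*-KO mouse 4 and 5 with library totals, where 54.6% of all genes were lower. The 2 were the transporter *Slc7a2* at 15.7 ± 4.41 against 4.68 ± 0.754 CPM (log2FC -1.75, adjusted p = 2.4e-05) and *Slc7a6* at 105 ± 15.4 against 37.4 ± 8.17 CPM (-1.49, adjusted p = 1.6e-05; SD, n = 5 and 4, edgeR's quasi-likelihood test). *Slc7a1*, the other main cationic amino acid transporter, was at 18.6, 13.9, 12.7 and 43.1 CPM in *Supt6*-KO mice 1 to 4 against 26.4 to 38.0 CPM in the controls, and passed as lower without mouse 4 (-1.12, adjusted p = 0.00018, edgeR) and with library totals (-1.18, adjusted p = 0.02). Its log2FC was -0.56 in all mice and 0.28 with length offsets, neither of which passed. Of 9 genes for the handling of arginine, ornithine and proline tested, 2 were higher and 6 lower (22.2% and 66.7%, against 34.1% and 36.8% of all genes). With library totals 0 of these 9 were higher and 6 lower, beside 16.9% and 54.6% of all genes. The mitochondrial ornithine carrier *Slc25a15* went from 26.1 ± 2.58 to 44.2 ± 3.5 CPM (0.76, adjusted p = 8.4e-05, edgeR; SD, n = 5 and 4) but was at 0.06 with library totals, and *Pycr1*, which acts in proline synthesis, was lower (-1.36). *Asl*, encoding the lyase that follows argininosuccinate synthase, was at 18.1 ± 1.19 against 25.3 ± 6.09 CPM (SD, n = 5 and 4). For *Asl* the log2FC was 0.48 (adjusted p = 0.015, edgeR), 0.3 to 0.57 with each mouse left out, and -0.17 with library totals. The urea cycle gene *Cps1* had 7 to 42 counts in the controls and 0 in each *Supt6*-KO mouse. On average it was at least 4.68-fold lower, with the control mean of 0.601 CPM set against a floor of 3 counts per library (0.129 CPM). Single controls ranged from 0.178 to 1.12 CPM, so the lowest lay close to that floor.

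Genes that make the tetrahydrobiopterin cofactor of nitric oxide synthases were higher, and the other synthases and 2 of 3 subunits of the nitric oxide receptor were lower. *Pts* went from 20.2 ± 4.15 to 86.6 ± 25.7 CPM (log2FC 2.10, adjusted p = 5.6e-06) and *Gch1*, the first enzyme of cofactor synthesis, from 10.0 ± 2.10 to 33.0 ± 7.55 CPM (1.72, adjusted p = 1.9e-05; SD, n = 5 and 4, edgeR's quasi-likelihood test). Of the 10 genes of synthases and cofactor 6 were higher (*Pts*, *Gch1*, *Spr*, *Qdpr*, *Gchfr* and *Ddah2*) and 2 lower, against 34.1% and 36.8% of all genes. With library totals 2 were higher and 3 lower (16.9% and 54.6% of all genes) and *Qdpr* changed sign, and with length offsets 3 were higher and 2 lower and *Qdpr* and *Gchfr* changed sign. The lower ones were *Nos1*, the neuronal synthase, counted 119 to 194 times in the controls and 1, 3, 1 and 10 times in *Supt6*-KO mice 1 to 4 (adjusted p = 4e-06), and *Nos3*, the endothelial synthase (-0.59, adjusted p = 0.018, edgeR), which did not pass with length offsets (-0.19, adjusted p = 0.36) or without *Supt6*-KO mouse 2 (-0.52, adjusted p = 0.051). Of 4 genes for the nitric oxide receptor, soluble guanylate cyclase, and its downstream kinase 3 were lower, and 4 with library totals (54.6% of all genes) or with length offsets. Among them were *Gucy1b1* at 38.2 ± 6.00 against 2.68 ± 0.592 CPM (-3.84, adjusted p = 1e-07) and *Gucy1a1* at 14.8 ± 3.73 against 2.55 ± 0.469 CPM (-2.54, adjusted p = 2.8e-06; SD, n = 5 and 4, edgeR). The subunit *Gucy1a2*, with 14 to 71 counts per mouse, did not pass (-0.69, adjusted p = 0.0645, edgeR) and overlapped between the groups. Beside these, summed skeletal muscle markers were 3950 to 5280 CPM in the controls and 874 to 1410 CPM in *Supt6*-KO skin, and 6 of 6 endothelial markers were lower (3 of 6 with length offsets; summed 54.7 to 125 against 32.2 to 44.1 CPM). Their part in these results was not tested. In whole skin, fewer cells of a type and less RNA per cell cannot be told apart.

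Of 3 antizyme and inhibitor genes 2 were higher, as were 1 of 3 further genes of oxidation and acetylation and 3 of 4 of hypusination, beside 34.1% of all genes. None of these genes was called lower, against 36.8% of all genes. With library totals 1 of each of these lists was lower (54.6% of all genes), and with length offsets 1 of the first and 1 of the second. *Oaz1*, encoding the antizyme that targets ornithine decarboxylase for degradation, went from 393 ± 73.4 to 1060 ± 230 CPM (1.43, adjusted p = 5.2e-05, edgeR; SD, n = 5 and 4). *Azin2*, a second antizyme inhibitor, had a log2FC of 0.73 (adjusted p = 0.0061, edgeR), which was 0.00 with library totals. *Oaz2* was at 79.5 ± 5.94 and 65.1 ± 10.7 CPM and did not pass (-0.29, adjusted p = 0.062), but passed as lower with library totals (-1.01). All 9 tested genes of a list around S-adenosylmethionine (its synthesis, its decarboxylation by *Amd2* and the salvage of its products) were higher. They ranged from 0.32 for *Adi1* to 1.53 for *Ahcy* (adjusted p = 5.2e-05, edgeR), apart from *Amd2* (1.58), whose counts cannot be divided from those of *Amd1*. With library totals 3 of the 9 were higher (16.9% of all genes), and *Mri1* and *Adi1* turned to lower values. *Paox*, a polyamine oxidase acting on acetylated polyamines, rose from 20.7 ± 1.47 to 49.1 ± 12 CPM (1.25, adjusted p = 3.9e-05, edgeR; SD, n = 5 and 4), and *Sat2* did not pass (-0.19, or 0.01 without *Supt6*-KO mouse 4) but passed as lower with library totals (-0.93, adjusted p = 0.0016) and with length offsets (-1.16, adjusted p = 0.00026, edgeR).

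Of 6 polyamine transport genes 1 was higher and 3 were lower (16.7% and 50%, against 34.1% and 36.8% of all genes), with 1 and 5 without *Supt6*-KO mouse 4. With library totals 0 of the 6 were higher and 4 lower, beside 16.9% and 54.6% of all genes. *Atp13a3* was at 57.7 ± 2.88 against 89.6 ± 20.8 CPM (0.64, adjusted p = 0.0018, edgeR; SD, n = 5 and 4), though with library totals it was -0.03. *Atp13a2*, a lysosomal polyamine exporter, was lower (-1.55, adjusted p = 6.4e-06, edgeR), as was the organic cation transporter *Slc22a3* (-2.81, adjusted p = 3.1e-05, edgeR), which fell to 2 to 10 counts in the *Supt6*-KO mice. Spermidine is also the donor for hypusine, a modified lysine of the translation factor eIF5A. *Eif5a* stood at 661, 782, 744, 618 and 508 CPM in controls 1 to 5 and at 2130, 2160, 2270 and 2470 CPM in *Supt6*-KO mice 1 to 4. The groups were far apart and, on the TMM scale, the *Supt6*-KO mice close together, with a log2FC of 1.77 ± 0.16 (adjusted p = 3.6e-06, edgeR's quasi-likelihood test). The hypusine-forming enzymes *Dhps* (1.44, adjusted p = 2.2e-06) and *Dohh* (1.32, adjusted p = 7.8e-06, edgeR) were higher too, and these 3 were also higher with library totals.

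**Figure D3:**
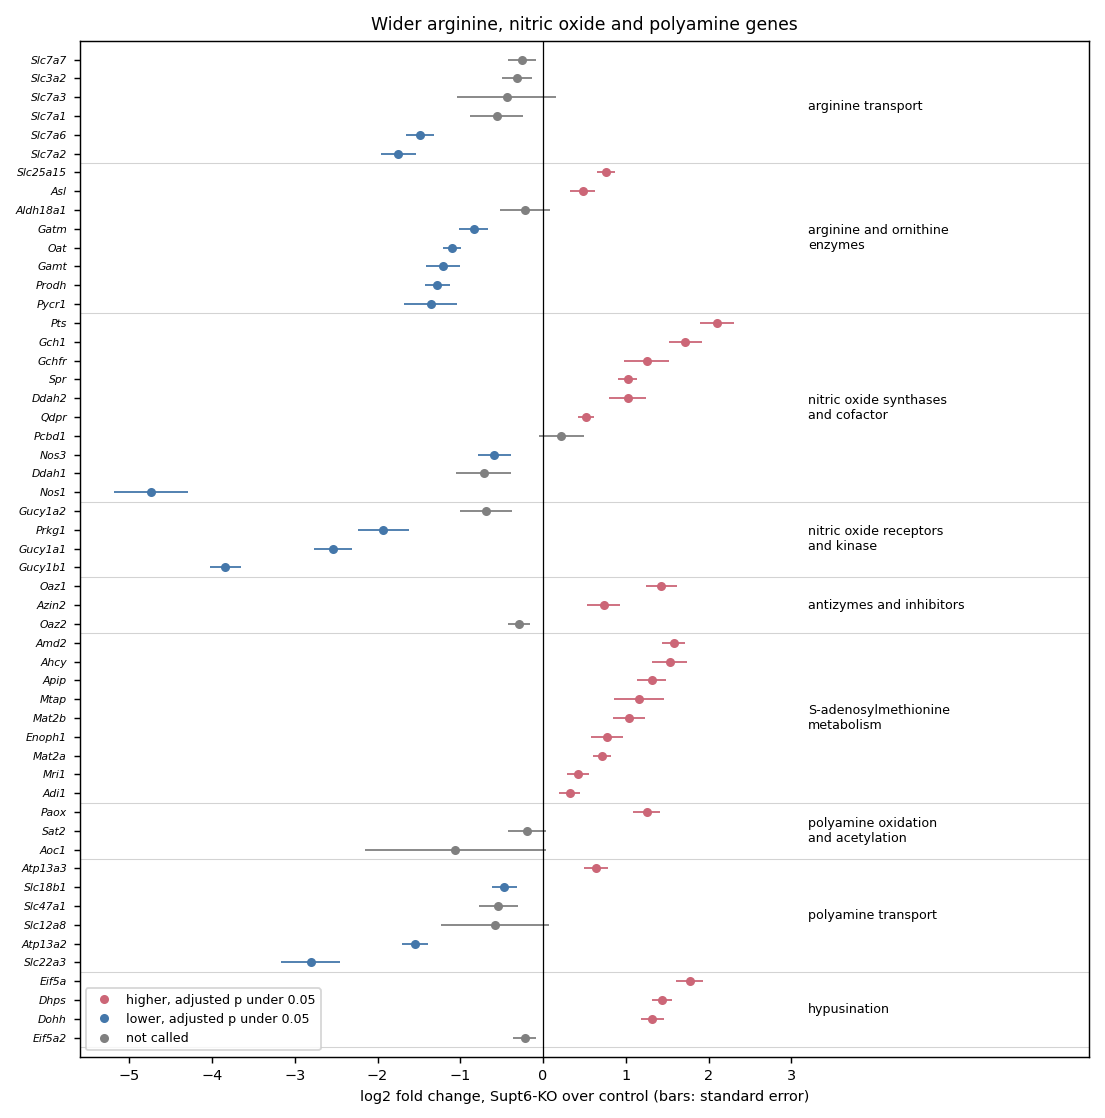
Log2 fold changes (x axis; bars are standard errors) of 53 of the 54 tested genes of the wider list, grouped by role, with genes called higher in red, called lower in blue and not called in grey. *Cps1*, at 0 counts in the *Supt6*-KO mice, is left out. The S-adenosylmethionine and hypusination groups lie mostly to the right and the nitric oxide receptor group to the left, with *Asl*, *Qdpr*, *Mri1*, *Adi1* and *Atp13a3* changing side with library totals and *Qdpr*, *Gchfr* and *Adi1* with length offsets.

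Transcription factors known to act on these genes were read from lists as well. *Odc1* is a classical target of MYC, and of 6 genes of the MYC network 2 were higher and 4 lower (33.3% and 66.7%, against 34.1% and 36.8% of all genes). With library totals 1 was higher and 5 lower (beside 16.9% and 54.6% of all genes). With length offsets 1 was higher and 3 lower and *Mxi1* changed sign. *Myc* itself was at 72.1 to 94.7 CPM in the controls and 53.2 to 72.1 CPM in the *Supt6*-KO mice, with a log2FC of -0.46 (adjusted p = 0.0063, edgeR's quasi-likelihood test). *Mycn* had 30 to 91 counts in the controls and 2 to 4 in the *Supt6*-KO mice (-3.13, adjusted p = 0.00011, edgeR), and the MAX partners *Mnt* (-2.21) and *Mxd1* (1.31) moved in opposite directions. *Max* was higher by 0.34 (adjusted p = 0.026, edgeR), and it turned to -0.36 with library totals. Of 11 regulators of *Nos2* and of macrophage activation, 3 were higher and 4 lower (27.3% and 36.4%, against 34.1% and 36.8% of all genes). With library totals 0 were higher and 6 lower (beside 16.9% and 54.6% of all genes). With length offsets 5 were higher and 2 lower and *Stat3* changed sign. The interferon regulatory factor *Irf1* (1.03, adjusted p = 0.0048) and the interleukin 4 receptor chain *Il4ra* (0.96, adjusted p = 0.0056) were higher and *Pparg* (-2.10, adjusted p = 5.5e-07) and the NF-κB subunit *Rela* (-1.36, adjusted p = 0.00025, edgeR) lower. Neither *Irf1* (0.29) nor *Il4ra* (0.33) passed with library totals.

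Promoter sequence was at hand for 6 of the 9 genes in RefSeq windows of 300 bases on GRCm38.p6, from 250 bases before to 50 after the start site. The palindromic E-box CACGTG, the MYC and MAX recognition sequence, was present in 7.15% of all 32851 windows. Among the 6 genes it was found for *Ass1*, 36 bases before the start site, and in 1 of the windows of *Sms*, 196 bases before the start site, and not in the windows of *Odc1*, *Amd1*, *Sat1* and *Smox*. The matches are shown with the E-box in capitals (chr2:31470222-31470251, plus strand, and chrX:157492466-157492495, minus strand). A match is a description of the sequence and not a binding site, and the lack of one says only that these letters are not in the window.
Ass1: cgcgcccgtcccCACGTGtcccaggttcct
Sms: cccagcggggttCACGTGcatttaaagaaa

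The NF-κB consensus, searched on both strands, occurred in 8.46% of all windows and, of the 6 genes, in the windows of *Sms* alone.

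Many macrophage and neutrophil markers were also higher in *Supt6*-KO skin, and most T cell markers were lower, where 34.1% of all genes were higher and 36.8% lower (16.9% and 54.6% with library totals). Of 11 macrophage markers 8 were higher and 2 lower (72.7% and 18.2%, or 5 and 2 with library totals, where *Adgre1* changed sign, and with length offsets), with summed levels of 247, 227, 172, 229 and 365 CPM in controls 1 to 5 and 901, 934, 1270 and 745 CPM in *Supt6*-KO mice 1 to 4. *Lyz2*, a gene that neutrophils also express, was the most abundant of them and accounted for most of that rise (92.9 against 641 CPM), whereas *Csf1r* (-1.83, adjusted p = 5.1e-05) and *Mertk* (-1.28, adjusted p = 0.00053, edgeR) were lower. Of 6 markers of alternatively activated macrophages 4 were higher and 2 lower (66.7% and 33.3%, or 2 and 2 with library totals and with length offsets, where *Ccl17* changed sign). *Clec10a*, their most abundant over the 9 mice, was at 11.1 against 43.3 CPM. *Chil3*, at 0.157 against 49.7 CPM, was above *Clec10a* in *Supt6*-KO skin on average. *Mgl2* (15.1 against 4.00 CPM), which was above *Clec10a* in the controls, and *Retnla* (9.67 against 0.413 CPM) were lower. In *Supt6*-KO mice 1 to 4 *Retnla* was uneven, at 1.09, 0.048, 0.229 and 0.287 CPM.

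Of 11 neutrophil markers tested 9 were higher and 1 (*Mpo*) lower (81.8% and 9.09%, against 34.1% and 36.8% of all genes, or 8 and 1 with library totals), with summed levels of 4.76 to 9.71 CPM in the controls and 54.3, 66.2, 136 and 41.0 CPM in *Supt6*-KO mice 1 to 4. *Stfa2l1*, the most abundant by mean CPM over the 9 mice, had 0 to 2 counts per control and 311 to 969 per *Supt6*-KO mouse. Among the controls *Cxcr2* was the most abundant, at 6.0 CPM on average. *Elane* had at most 1 count in any mouse and *Ly6g* at most 15. Mouse 3, with the most *Nos2* and *Sat1*, also had the largest macrophage and neutrophil sums. Of 6 T cell markers tested 1 (*Cd8a*) was higher and 4 were lower (16.7% and 66.7%), and they summed to 102 to 117 CPM in the controls and 70.0, 47.9, 44.9 and 36.8 CPM in *Supt6*-KO mice 1 to 4. The part of these cells in the level of *Nos2* was not tested.

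Keratinocyte markers differed between the groups as well, beside the 34.1% of all genes that were higher and 36.8% that were lower (16.9% and 54.6% with library totals). Of 7 basal keratinocyte markers 6 were lower, and *Krt14*, their most abundant over the 9 mice and the gene whose promoter drives Cre, was at 2970 to 3810 CPM in the controls and 4730, 3110, 3960 and 9610 CPM in *Supt6*-KO mice 1 to 4 (adjusted p = 0.063, edgeR). Of 7 suprabasal markers 4 were higher and 0 lower (4 and 3 with library totals), and they summed to 20500 to 22300 CPM in the controls and 44400, 43300, 41900 and 21700 CPM in *Supt6*-KO mice 1 to 4. Of 7 proliferation genes 3 were higher and 0 lower (42.9% and 0%, or 3 and 1 without *Supt6*-KO mouse 4 and 5 and 0 with length offsets). Mouse 4 thus had the highest stress keratin, proliferation, *Odc1*, *Srm*, *Ass1* and *Smox* levels of its group and a suprabasal sum within the control range. The part of these states in the polyamine genes was not tested. Hair follicle markers were lower for 7 of 8 genes, though their sums were widely spread, at 1850, 189, 630, 422 and 71.8 CPM in controls 1 to 5 and 28.0, 62.5, 79.8 and 86.4 CPM in *Supt6*-KO mice 1 to 4, so that control 5 was within the *Supt6*-KO range. Fibroblast markers were lower for 4 of 6 and adipocyte markers for 4 of 5. All 5 tested cartilage markers were lower, at sums of 290 to 707 CPM in the controls and 43.8 to 51.6 CPM in the *Supt6*-KO mice, in libraries labelled as ear.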

How the data were processed

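RNA-Seq of whole skin was analysed for 5 control and 4 *Supt6*-KO mice. Per the methods, paired reads had been mapped to mm10 by Bowtie2 2.3.4.3 and summed per gene by RSEM 1.3.1. The authors deposited these as estimated counts, not normalized between mice, with TPM for 6 of the 9 mice. The submitters' processing notes also list HISAT and DESeq2 1.4.5. The annotation release is not given in the sources used here. About 9% of the estimated counts were not whole, and all were rounded. RefSeq named 17917 genes and left 26 unnamed.

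Genes with a sum under 10 counts were left out, and groups were compared with edgeR 4.0.16 (R 4.3.3), TMM factors, the quasi-likelihood test and Benjamini-Hochberg adjustment over 16426 genes. A call needed adjusted p under 0.05, and a 2-fold call also a log2 fold change beyond 1 in size. The same steps were tested on simulated counts of 16319 genes, where edgeR recovered 49% of 100 genes changed by 1 and 100% of 100 changed by 2 on the log2 scale. It also called 10 unchanged genes. As few genes were changed there, as many up as down, the simulation did not test the choice of scaling. Alternatives were DESeq2 1.42.0, other scalings and filters, a replicate block, length offsets, a Y-linked covariate and each mouse left out. Depth was 29627341 to 30967107 counts per mouse, and intervals or floors of 3 counts cover counting error only. Tables were made in pandas 2.3.3 under Python 3.11.15.

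The 9 genes and all lists were chosen with earlier results of these data known, and a few related genes are not reported here. Named genes are *Supt6*, the 9, 10 paralogs and partners, up to 2 higher and 2 lower genes with the largest log2 fold change per list, the 3 genes most like *Nos2* and *Odc1*, and of marker lists the most abundant gene. *Myc*, *Stat3*, *Mxi1*, *Dohh*, *Adi1*, *Mri1*, *Spr*, *Qdpr*, *Gchfr*, *Ddah2*, *Gucy1a2* and the other markers were named after their values were seen. The labels number the mice without stating litters, so p-values measure the spread between these mice.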

Additional observations from a re-analysis of the deposited data

Results flagged for a closer look

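For 118 groups of values (the named genes and the marker sums, in each group of mice), the gap of the highest or lowest mouse to its neighbour was compared with the whole range of its group, a check by which chance marks about 1 in 20 groups, here about 6. It marked 7, and 3 of them were *Supt6*-KO mouse 4 in sums of marker genes. That mouse had 22800 CPM of stress keratins against a group median of 5450, 947 CPM of proliferation genes against 367, and 21700 CPM of suprabasal keratinocyte markers against 42600. It also had the lowest *Gch1* of its group, at 21.7 CPM against a median of 36.3. The arginine transporter *Slc7a2* was at 5.81 CPM in *Supt6*-KO mouse 3 against a median of 4.35. *Pycr1* was at 7.89 CPM in control 5 against a median of 3.65, and *Mycn* at 2.43 CPM in control 1 against 1.04. None of the 9 arginine and polyamine genes was marked in either group.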

How the results depend on the processing

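Library totals in place of TMM factors moved the counts most, as the median over all genes, on the log2 scale, went from -0.072 to -0.759. Of the 9 genes, 4 were then higher and 1 lower, of the wider list 10 higher and 25 lower, and of all genes 2771 higher (16.9%) and 8970 lower (54.6%). No share of all genes is given for length offsets, so list counts under that setting have no background beside them. With library totals *Azin1* (-0.42), *Sms* (-0.06), *Asl* (-0.17), *Atp13a3* (-0.03) and *Max* (-0.36) changed sign, as did *Slc7a1* with length offsets (0.28) and *Sat2* without *Supt6*-KO mouse 4 (0.01). Over 43 named genes and 811 values under an alternative, 758 kept direction and side of the threshold, 26 lost and 20 gained a call, and 7 changed sign. *Nos2*, *Ass1*, *Sat1* and *Smox* kept their calls under each alternative that could be run (*Nos2* was removed by a filter of 10 counts in every mouse). *Srm* lost its call under 10 alternatives, 6 of which left out 1 mouse. With each mouse left out, 6 to 8 of the 9 genes were higher and 0 lower, 23 to 24 genes of the wider list were higher and 16 to 22 lower, and 5305 to 5729 of all genes were higher and 5669 to 6392 lower. *Supt6* was then at -1.66 to -1.47, and it was at -0.76 with length offsets (adjusted p = 0.00018, edgeR) and -2.26 with library totals.

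Control and *Supt6*-KO mice share replicate numbers. Same-numbered mice correlated at 0.0108 to 0.246 in their deviations, with a mean of 0.141 against -0.03 for mice of other numbers. As 1 of 4 *Supt6*-KO mice correlated best with its own number and the labels state no litters, the numbers were not taken as pairs. With a replicate block 6 of the 9 genes, 21 genes of the wider list and 5251 of all genes were higher, *Srm* (0.53), *Nos3* (-0.53) and *Asl* (0.42) lost their calls, *Slc7a1* (-0.69) and *Oaz2* (-0.33) gained one, and *Supt6* was at -1.46. Depth limits *Nos2*, *Nos1*, *Mycn* and *Slc22a3*, which rest on few counts, and estimated counts cannot divide *Amd1* from *Amd2*.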
